A study of Mus musculus with 16 samples.

Results

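Adgrg4, Asic5, Afp, Dnah9, ccdc198, Cryba2, Gfra3, Vwa5b2, Bex2 and Celf3 are 10 genes, of the 55359 identifiers in the count table, that lie outside the known hormone and transcription factor genes of enteroendocrine cells. They were picked by symbol because their counts had been seen to be lower in mice that lost the gene Neurog3 from the gut epithelium, so the comparison between genotypes chose them and is given here as a description with no test. Of the 10, 9 were below control level with no overlap between the groups in the ileum, and 7 in the duodenum. Over all genes tested, 14.2% in the ileum and 10.2% in the duodenum separated downward in this way. Bex2 was not lower in either tissue, and ccdc198 and Cryba2 overlapped between genotypes in the duodenum, which goes against the way these genes were picked.

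Total RNA was sequenced from the ileum and the duodenum of 8 adult male C57BL/6N mice fed a high fat diet, with tissue collected 5 weeks after tamoxifen. The 4 NFVCT mice, named M136, M167, M168 and M177 here after the numbers in their titles, were Neurog3f/f; Villin-CreERT2, which means that both Neurog3 alleles were floxed and that the tamoxifen-dependent recombinase CreERT2 was driven by the Villin promoter, active throughout the intestinal epithelium. The 4 NF mice, named M133, M134, M151 and M154, were Neurog3f/f and carried the same floxed alleles without the recombinase. Any effect of CreERT2 itself therefore cannot be told apart from that of losing Neurog3. Each mouse gave both tissues, so there were 16 libraries, with 40.9 to 67.2 M counts each.

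Enteroendocrine cells are scattered hormone-secreting cells of the gut lining, and Neurog3 is the transcription factor that epithelial progenitors need to become one. Cells of the upper gut make more cholecystokinin, ghrelin and secretin, while those of the lower gut make more peptide YY and neurotensin. They are electrically excitable, and they use channels, receptors and RNA-processing factors that are otherwise best known from neurons. Because they are rare, a gene made in them and in few other cells has a low level in whole gut RNA.

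Neurog3 itself had 1 count over the 4 NFVCT libraries in each tissue, against 201 counts in NF ileum and 549 in NF duodenum. The summed level of 22 enteroendocrine genes was 9.03 to 10.5 CPM, counts per 1 M of the scaled library, in NFVCT ileum against 172 to 274 CPM in NF ileum, and 8.04 to 18.5 CPM in NFVCT duodenum against 388 to 502 CPM in NF duodenum. The 18.5 CPM was in mouse M177, whose duodenum also had the highest sum of 6 pancreatic islet genes, at 28.6 CPM. What islet RNA adds to the enteroendocrine sum was not tested. Tissue markers followed the labels, since Fabp6 and Slc10a2 together gave 696 to 2181 CPM in ileum libraries and at most 5.43 CPM in duodenum libraries. Exocrine pancreas RNA was unevenly spread over the duodenum libraries, with 8468 to 188500 CPM over 10 genes in NFVCT mice and 72.6 to 30810 CPM in NF mice. The epithelial genes Epcam and Vil1 together were at 2813 to 4152 CPM in NFVCT duodenum, below the 4359 to 4695 CPM of NF duodenum, and at 2791 to 3731 CPM in NFVCT ileum against 3416 to 4197 CPM in NF ileum. The part of these differences in the results below was not tested. Values without a mouse, where given, do not test it, since leaving out a mouse does not remove these differences.

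The stretches just before the gene starts are shown for 4 genes that span the range of outcomes: Afp and Adgrg4, whose counts all but vanished, Celf3, which kept part of its level, and Bex2, which kept all of it. Each is the 250 bases before the start, 5′ to 3′ on the gene's own strand, from RefSeq on GRCm38.p6, with the E-box (CANNTG, the word that factors of the Neurog3 family bind) and the homeodomain core word TAATTA in capitals. Afp lies at chr5:90490464-90490713 on the plus strand, Adgrg4 at chrX:56893984-56894233 on the plus strand, Celf3 at chr3:94484108-94484357 on the plus strand, as 1 of 7 start sites of that gene in the table, and Bex2 at chrX:136068237-136068486 on the minus strand.
Afp: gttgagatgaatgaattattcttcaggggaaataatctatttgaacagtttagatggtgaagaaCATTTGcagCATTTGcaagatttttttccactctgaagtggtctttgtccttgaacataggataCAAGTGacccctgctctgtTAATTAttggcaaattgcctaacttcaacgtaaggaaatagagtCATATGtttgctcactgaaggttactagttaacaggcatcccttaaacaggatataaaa
Adgrg4: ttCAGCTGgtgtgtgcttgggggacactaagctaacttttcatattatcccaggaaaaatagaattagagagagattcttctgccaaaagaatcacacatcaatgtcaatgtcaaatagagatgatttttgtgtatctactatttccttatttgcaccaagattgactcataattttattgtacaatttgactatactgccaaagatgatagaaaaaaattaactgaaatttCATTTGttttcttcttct
Celf3: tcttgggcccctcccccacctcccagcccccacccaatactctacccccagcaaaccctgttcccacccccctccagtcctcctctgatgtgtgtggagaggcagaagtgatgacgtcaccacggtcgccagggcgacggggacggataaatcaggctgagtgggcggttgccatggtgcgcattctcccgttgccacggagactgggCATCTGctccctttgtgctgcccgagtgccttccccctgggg
Bex2: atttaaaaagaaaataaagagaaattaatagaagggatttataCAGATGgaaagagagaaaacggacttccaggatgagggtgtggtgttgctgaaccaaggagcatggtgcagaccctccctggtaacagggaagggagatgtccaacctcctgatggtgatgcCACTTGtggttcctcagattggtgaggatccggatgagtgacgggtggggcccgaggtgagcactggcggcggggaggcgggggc

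Both strands of the window of 250 bases before to 50 after each start were searched, and 9 of the 10 genes were in the table. CANNTG was present in 7 of the 9 genes (Adgrg4, Afp, Asic5, Bex2, Celf3, Cryba2 and Vwa5b2), against 75.0% of all 27025 genes in the table. Its form CAGATG, which is counted among the CANNTG matches, was in Bex2 and Celf3 alone, against 19.2% of all genes. Only some of the Celf3 start sites had it, and a gene with several start sites has more windows that can hold a word. In the Celf3 stretch above, CAGATG is read on the opposite strand, as CATCTG. The homeodomain word was in Afp alone, against 6.12% of all genes. CANNTG thus occurred in Bex2, whose level was kept, as well as in genes whose level was lost, such as Afp and Adgrg4, and a match is a description of the letters only.

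In the ileum, all 4 NFVCT libraries lay below all 4 NF libraries for 9 of the 10 genes, and in the duodenum for 7 of the 10. Over all genes, such a full separation downward was seen for 14.2% of the 18310 genes tested in the ileum and for 10.2% of the 17611 tested in the duodenum, and nothing is read from the difference because it chose the genes. The median level left in NFVCT mice was 15.4% of the NF mean in the ileum and 6.13% in the duodenum. With single mice left out it ranged from 10.4 to 17.3% in the ileum and from 4.03 to 7.51% in the duodenum, lowest without mouse M177 in both. In whole tissue, fewer cells of a type and less RNA per cell cannot be told apart.

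**Figure D1:**
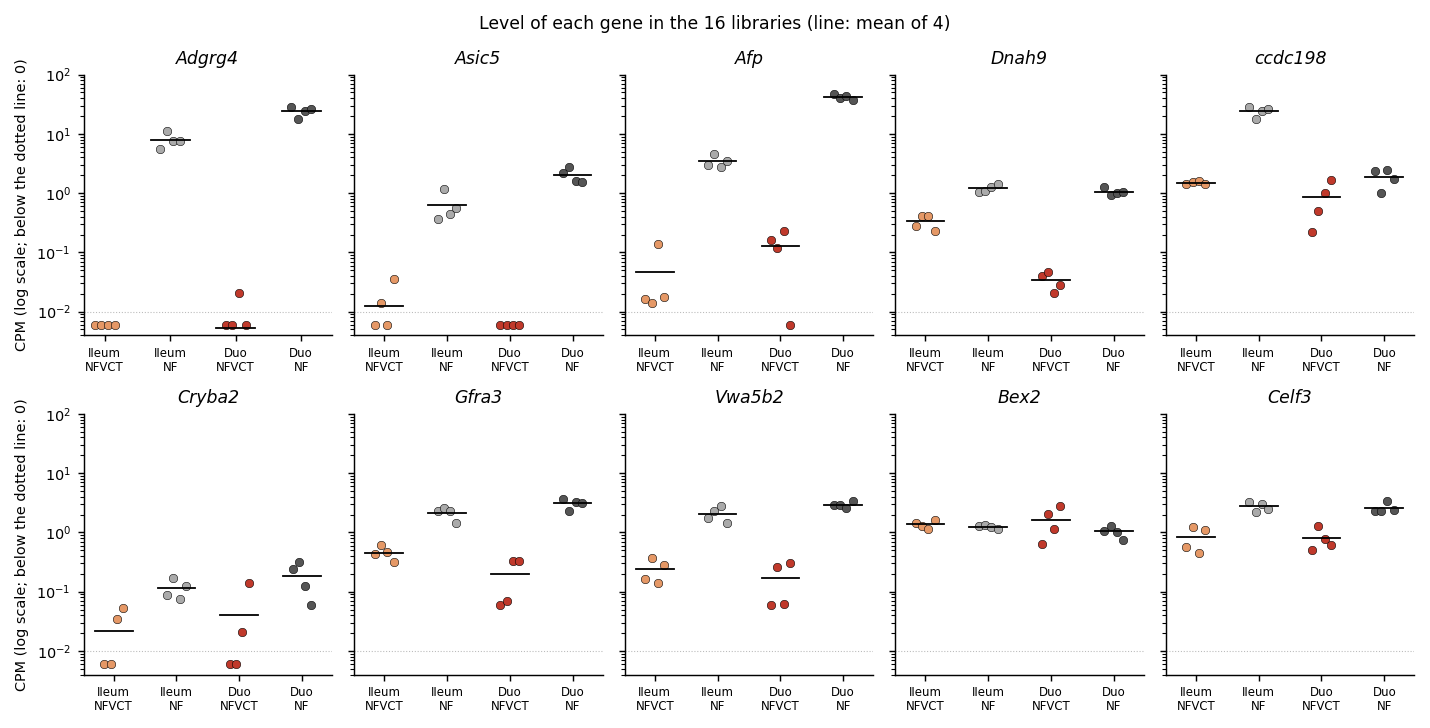
Level of each of the 10 genes in CPM (log axis) in the 16 libraries, with NFVCT left of NF for the ileum and then the duodenum. Each point is 1 library, the line is the mean of 4, and points below the dotted line are libraries with 0 counts. Adgrg4 and Asic5 sit at or near 0 in NFVCT mice, while Bex2 is at a similar height in all 4 groups.

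Values per library are given below in the order M136, M167, M168 and M177 for NFVCT and M133, M134, M151 and M154 for NF. The first 3 genes encode membrane proteins. Adgrg4 (ENSMUSG00000053852, chromosome X) encodes an orphan adhesion G protein-coupled receptor. Its level was 0 CPM in all 4 NFVCT ileum libraries, against 5.62, 11.4, 7.63 and 7.44 CPM in NF mice M133, M134, M151 and M154. In the duodenum it was 0, 0, 0.0209 and 0 CPM in NFVCT mice M136, M167, M168 and M177, against 28.3, 17.7, 24.4 and 26.6 CPM in the NF mice. The groups did not overlap, and a single count in mouse M168 was all that remained over 8 NFVCT libraries. Against the floor of 3 counts over a group, Adgrg4 was at least 656-fold lower in NFVCT ileum. In the duodenum its share left was 0.0215% of the NF mean, with a 95% counting interval of 0.000601 to 0.132%, and without mouse M168, where no count remained, it was at most 0.0961%.

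Asic5 (ENSMUSG00000028008, chromosome 3) encodes a channel of the acid-sensing and epithelial sodium channel family, known in rat and human for its response to bile acids. Its level was 0, 0.0140, 0 and 0.0357 CPM in the ileum of NFVCT mice M136, M167, M168 and M177, against 0.366, 1.18, 0.437 and 0.560 CPM in NF mice M133, M134, M151 and M154. All 4 NFVCT duodenum libraries had 0 CPM, against 2.22, 2.72, 1.57 and 1.52 CPM in the NF mice. Every NF library thus held Asic5, and 6 of 8 NFVCT libraries held none. The share left in the ileum was 1.95%, from 3 counts, with an interval of 0.403 to 5.90%, and without mouse M177, which held 2 of the 3 counts, it was 0.734%. In the duodenum Asic5 was at least 118-fold lower in NFVCT mice. Intervals and floors cover counting error only.

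Gfra3 (ENSMUSG00000024366, chromosome 18) encodes the co-receptor through which the neurotrophic factor artemin engages the receptor kinase Ret. It had 0.427, 0.602, 0.471 and 0.321 CPM in NFVCT ileum, against 2.28, 2.59, 2.28 and 1.45 CPM in NF ileum. Its duodenum level was 0.0597, 0.0708, 0.334 and 0.332 CPM in NFVCT mice, against 3.67, 2.26, 3.32 and 3.16 CPM in NF mice. NFVCT mice M136 and M167 were the low pair in the duodenum, and no library of either tissue crossed into the other group. The share left was 21.2% in the ileum and 6.43% in the duodenum, and whether these shares differ between tissues was not tested.

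Afp (ENSMUSG00000054932, chromosome 5) encodes alpha-fetoprotein, the albumin-like plasma protein of the yolk sac and fetal liver. It was at 0.0164, 0.0140, 0.139 and 0.0179 CPM in the ileum of NFVCT mice, against 3.03, 4.48, 2.71 and 3.52 CPM in NF mice. Its duodenum level was 0.159, 0.118, 0.230 and 0 CPM in NFVCT mice, against 47.4, 40.4, 43.3 and 37.9 CPM in NF mice. The NF duodenum libraries were close to one another, with a coefficient of variation of 9.66%, and NFVCT mouse M168 was the highest of its group in both tissues. Afp kept 1.37% of the NF mean in the ileum, or 0.468% without mouse M168, and 0.300% in the duodenum. In the duodenum, 5 liver genes (Alb, Apoa2, Serpina1a, Ttr and Hp) summed to 5.26 to 9.16 CPM in NFVCT mice, with Serpina1a at 0, against 9.85 to 16.1 CPM in NF mice, while their ileum ranges overlapped at 3.77 to 5.25 CPM in NFVCT mice and 4.48 to 6.21 CPM in NF mice. Ttr was the highest of these liver genes in the duodenum, with a mean of 4.1 CPM in NFVCT mice and 7.1 CPM in NF mice. Alb, the defining liver gene, had 0.0199 to 1.33 CPM in NFVCT duodenum against 0.581 to 1.02 CPM in NF duodenum, so its ranges overlapped. The part of liver RNA in the Afp result was not tested.

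Dnah9 (ENSMUSG00000056752, chromosome 11) encodes a heavy chain of the outer dynein arm, the motor of motile cilia. Its level was 0.279, 0.406, 0.418 and 0.232 CPM in NFVCT ileum against 1.02, 1.09, 1.29 and 1.43 CPM in NF ileum. NFVCT duodenum held 0.0398, 0.0472, 0.0209 and 0.0277 CPM, with 1 or 2 counts a library, against 1.26, 0.921, 1.01 and 1.03 CPM in NF duodenum. The share left was 27.7% in the ileum and 3.21% in the duodenum. A list of 7 other genes of motile cilia, Foxj1 among them, was scarce in sum and its ranges overlapped. It summed to 1.38 to 1.68 CPM in NFVCT ileum against 1.28 to 1.97 CPM in NF ileum. In the duodenum it summed to 0.981 to 1.61 CPM in NFVCT mice against 1.40 to 1.56 CPM in NF mice. The list holds no dynein heavy chain, and those called between genotypes, some lower in NFVCT mice, are given further below.

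Celf3 and Vwa5b2 were both lower in NFVCT mice, without overlap, in both tissues. Celf3 (ENSMUSG00000028137, chromosome 3) encodes a neuronal RNA-binding protein that regulates splicing. It had 0.559, 1.25, 0.453 and 1.09 CPM in the ileum of NFVCT mice, against 3.29, 2.17, 3.04 and 2.51 CPM in NF mice. NFVCT duodenum held 0.497, 1.30, 0.772 and 0.609 CPM, against 2.26, 2.34, 3.34 and 2.37 CPM in NF duodenum. Celf3 thus kept 30.4% of the NF mean in the ileum and 30.8% in the duodenum, more than any other gene whose groups did not overlap in both tissues. NFVCT mouse M167 was its highest library in both tissues and also had the highest summed level of 8 enteric neuron genes, at 37.1 CPM of a range of 18.0 to 37.1 CPM in NFVCT ileum and 25.5 CPM of a range of 13.7 to 25.5 CPM in NFVCT duodenum, against 24.5 to 47.1 CPM in NF ileum and 11.8 to 13.7 CPM in NF duodenum. In NFVCT duodenum Celf3 was lowest in mouse M136, where the neuron genes summed to 16.7 CPM, above M168 and M177. In NF mice the highest libraries differed. Celf3 was highest in M133 in the ileum and M151 in the duodenum, and the neuron genes in M151 and M134. None of the 8 neuron genes was at 0 in any group. What neurons add to the remaining Celf3 was not tested.

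Vwa5b2 (ENSMUSG00000046613, chromosome 16) encodes a protein with a von Willebrand factor A domain whose function is little known. Its level was 0.164, 0.364, 0.139 and 0.286 CPM in NFVCT ileum against 1.73, 2.31, 2.81 and 1.45 CPM in NF ileum. Duodenum levels were 0.0597, 0.260, 0.0626 and 0.305 CPM in NFVCT mice, against 2.88, 2.89, 2.58 and 3.44 CPM in NF mice. The share left was 11.5% in the ileum and 5.82% in the duodenum, and mice M167 and M177 were the higher pair of NFVCT libraries in both tissues.

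ccdc198 (ENSMUSG00000021850, chromosome 14) encodes a coiled-coil protein, also little known. In the ileum it had 1.45, 1.55, 1.60 and 1.41 CPM in NFVCT mice, against 28.7, 17.7, 24.0 and 26.0 CPM in NF mice. The 4 NFVCT ileum libraries were within a factor of 1.14 of each other and kept 6.25% of the NF mean. In the duodenum it had 0.219, 0.496, 1.02 and 1.66 CPM in NFVCT mice, against 2.40, 1.0, 2.5 and 1.72 CPM in NF mice, so the groups overlapped and 44.6% of the NF mean was left.

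Cryba2 (ENSMUSG00000006546, chromosome 1) encodes a beta-crystallin, of a family known as structural proteins of the lens. It was close to the counting limit throughout, with 0, 0, 0.0349 and 0.0536 CPM in the ileum of NFVCT mice, from 5 counts, against 0.0878, 0.172, 0.0759 and 0.124 CPM in NF mice, from 25 counts. In the duodenum it had 0, 0, 0.0209 and 0.138 CPM in NFVCT mice, from 6 counts of which 5 were in mouse M177, against 0.240, 0.318, 0.126 and 0.0592 CPM in NF mice. The share left was 19.2% in the ileum and 21.4% in the duodenum. Without mouse M177 these shares were 10.1% and 3.75%.

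Bex2 (ENSMUSG00000042750, chromosome X) encodes a small adaptor protein first described in brain. Its level was 1.45, 1.29, 1.15 and 1.63 CPM in NFVCT ileum against 1.26, 1.33, 1.25 and 1.14 CPM in NF ileum. Its duodenum level was 0.637, 2.05, 1.13 and 2.74 CPM in NFVCT mice, against 1.06, 1.30, 1.03 and 0.750 CPM in NF mice. The groups overlapped in both tissues, and the NFVCT mean was 110.5% of the NF mean in the ileum and 158% in the duodenum, staying above 100% with any 1 mouse left out. Its transcripts share 14.6% of their 50-base words with Bex3 and 7.61% with Bex1, so its count is uncertain to the extent that reads of these copies were split or dropped.

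**Figure D2:**
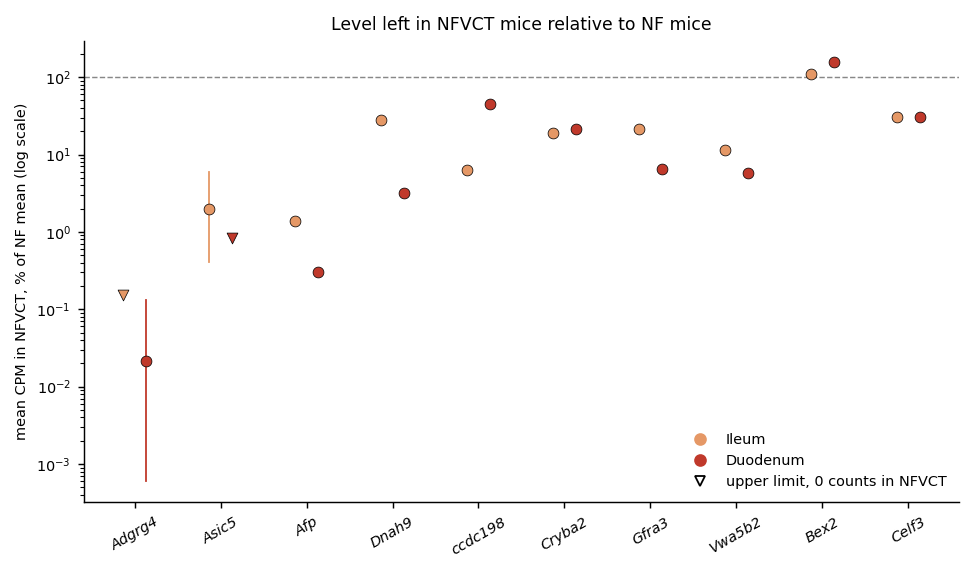
Mean CPM in NFVCT mice as a percentage of the NF mean (log axis), ileum left of duodenum for each gene. Triangles are upper limits where NFVCT libraries held 0 counts, bars are 95% counting intervals for 1 to 3 counts, and the dashed line is 100%, which Bex2 alone exceeds.

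Within the duodenum of NFVCT mice, pancreatic RNA varied between mice. The genes that did not separate from the NF group matched its order only in part. Ins2, made by the beta cells of the pancreatic islet, was at 0.159, 4.53, 8.39 and 17.4 CPM in NFVCT mice M136, M167, M168 and M177, against 4.79, 0, 2.08 and 0 CPM in NF mice M133, M134, M151 and M154. The order of the 4 NFVCT mice by ccdc198 was the same as by Ins2, and mouse M177 was the highest for ccdc198, Cryba2, Bex2, Vwa5b2 and Ins2. Ctrb1, a digestive enzyme of the exocrine pancreas, was at 1387, 35170, 7640 and 35140 CPM in the NFVCT mice. In the NF mice it was at 4238, 0.270, 2698 and 0.0197 CPM. The order by Bex2 put mice M167 and M177 above M136 and M168 as Ctrb1 did, but M167 above M168, unlike Ins2. ccdc198 was higher in mouse M168 than in M167, unlike Ctrb1. Cryba2 was at 0 CPM in mouse M167, where Ctrb1 was highest. The 6 islet genes summed to 0.398 to 28.6 CPM in NFVCT duodenum against 1.13 to 8.41 CPM in NF duodenum. In the ileum they summed to at most 0.697 CPM in NFVCT mice and 0.835 CPM in NF mice. Of the NF mice, M133 and M151 had the 2 highest ccdc198 levels and were also those that held Ins2, whereas Bex2 (1.30 CPM) and Cryba2 (0.318 CPM) were highest in mouse M134, which held no Ins2. The part of pancreatic RNA in these results was not tested.

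**Figure D3:**
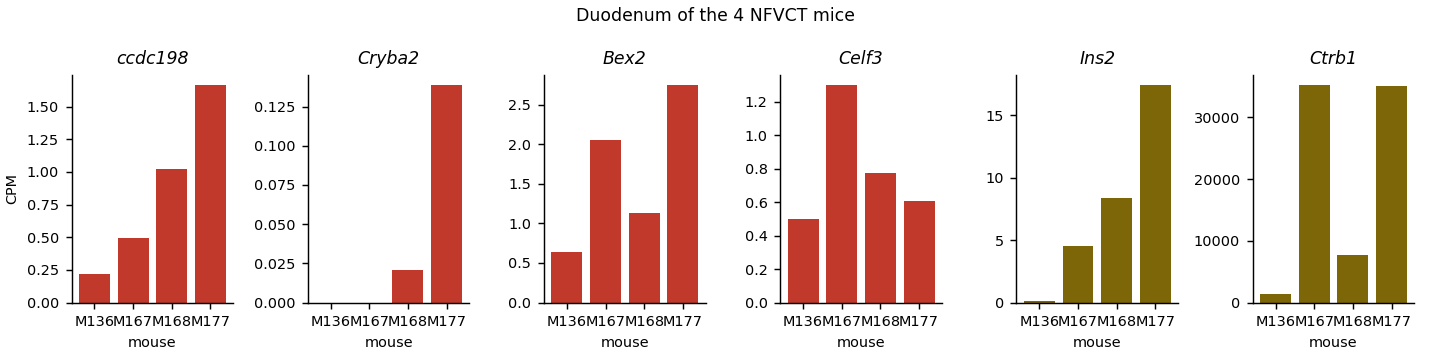
CPM in the duodenum of the 4 NFVCT mice for the 3 genes whose groups overlapped there, for Celf3, and for the islet gene Ins2 and the exocrine gene Ctrb1. Each bar is 1 library, and each panel has its own axis from 0. Mouse M136 is lowest or at 0 in all 6 panels, and the highest bar is mouse M177 for ccdc198, Cryba2, Bex2 and Ins2 and mouse M167 for Celf3 and Ctrb1.

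The ileum was then set against the duodenum within NF mice, a contrast that did not choose the genes, with edgeR's quasi-likelihood test and Benjamini-Hochberg adjustment over 18217 genes. Both tissues came from the same mice, but this test did not pair them. The calls with the mouse as a block are given at the end. Of the 9 genes tested, ccdc198 was higher in the ileum, against 28.0% of all genes tested, Afp, Asic5 and Adgrg4 were lower, against 30.3%, and the other 5 did not pass. In all, 58.3% of genes tested passed in either direction, so the 4 of 9 here is near or under the background. The median log2 difference of the 9 was -0.50. The NF values behind each difference are those given above.

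Afp averaged 3.44 ± 0.771 CPM in NF ileum and 42.3 ± 4.08 CPM in NF duodenum (SD, n = 4 each), which is 12.3-fold lower in the ileum, with a log2 difference of -3.61 (SE 0.15) and an edgeR adjusted p of 1.08e-07. ccdc198 averaged 24.1 ± 4.68 CPM in NF ileum and 1.91 ± 0.696 CPM in NF duodenum, which is 12.6-fold higher in the ileum, with a log2 difference of 3.68 (SE 0.30) and an adjusted p of 1.66e-05. These 2 genes thus differed between gut regions by a like factor in opposite directions. Adgrg4 was at 8.01 ± 2.41 CPM in NF ileum and 24.3 ± 4.65 CPM in NF duodenum, and its log2 difference was -1.59 (SE 0.22, adjusted p = 0.000272). Asic5 was at 0.636 ± 0.373 CPM in NF ileum and 2.01 ± 0.570 CPM in NF duodenum, and its log2 difference was -1.66 (SE 0.37, adjusted p = 0.00287). For each of these 4 genes, no ileum library of an NF mouse overlapped a duodenum library, a separation seen for 53.6% of all genes tested.

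Gfra3 and Vwa5b2 had ileum means below their duodenum means, at 2.15 ± 0.489 against 3.10 ± 0.601 CPM and at 2.07 ± 0.607 against 2.95 ± 0.356 CPM, with overlapping libraries. Their log2 differences were -0.51 (SE 0.22, adjusted p = 0.0608) and -0.50 (SE 0.22, adjusted p = 0.0683), and neither passed. Gfra3 passed without mouse M134 (adjusted p = 0.0222) and without mice M134 and M154 (adjusted p = 0.0451), and Vwa5b2 without mouse M151 (adjusted p = 0.0234) and with limma-voom (adjusted p = 0.0459), within ranges over all alternatives of 0.0222 to 0.208 and 0.0234 to 0.476. Dnah9, Bex2 and Celf3 had log2 differences of 0.20 (SE 0.21, adjusted p = 0.416), 0.27 (SE 0.21, adjusted p = 0.292) and 0.11 (SE 0.19, adjusted p = 0.650), and the sign for Celf3 turned to -0.03 without mouse M133. Cryba2 was too low to be tested.

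**Figure D4:**
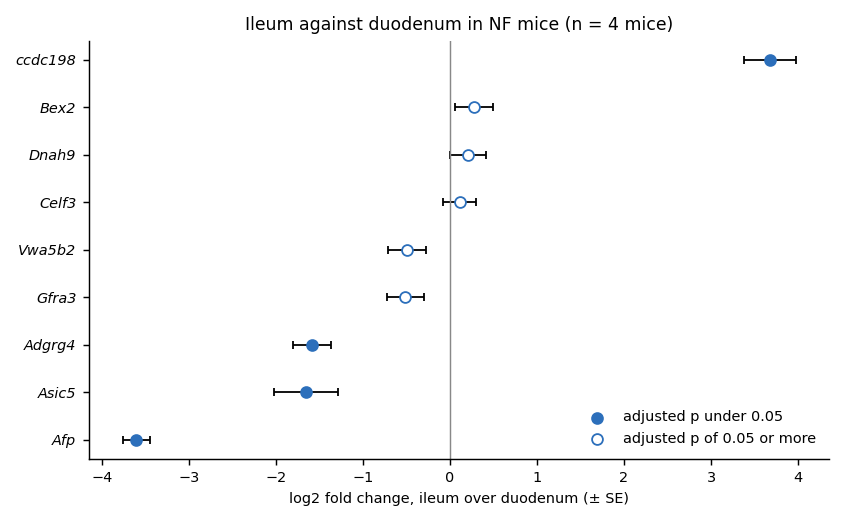
log2 fold change of ileum over duodenum in the 4 NF mice, with its standard error, for the 9 genes tested. Filled points had an adjusted p under 0.05, and ccdc198 at 3.68 and Afp at -3.61 lie at the ends.

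In NFVCT mice, 6 of the 10 genes had enough counts left for the same contrast, over 17852 genes tested, of which 12.9% were higher in the ileum and 18.2% lower. Dnah9 averaged 0.334 ± 0.0924 CPM in the ileum and 0.0339 ± 0.0118 CPM in the duodenum (SD, n = 4 each), where each library held 1 or 2 counts. Dnah9 passed the filter on low counts through its ileum libraries alone, so it had to differ to be tested, and its values are a description with no test. In NF mice Dnah9 was at 1.21 ± 0.187 CPM in the ileum and 1.05 ± 0.146 CPM in the duodenum, and whether the tissue difference differs between genotypes was not tested. The other 5 did not pass edgeR's test: the log2 differences were 0.86 for ccdc198 (adjusted p = 0.189), 1.23 for Gfra3 (adjusted p = 0.0997), 0.55 for Vwa5b2 (adjusted p = 0.511), -0.23 for Bex2 (adjusted p = 0.696) and 0.10 for Celf3 (adjusted p = 0.884).

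The 10 genes were ranked by level only after division by exon length, as RPKM, the CPM per kilobase of exon. In NF ileum ccdc198 was highest at 6.14 ± 1.2 RPKM (SD, n = 4), above all libraries of the other genes. It was followed by Bex2 at 1.38 ± 0.0886, Gfra3 at 1.08 ± 0.245, Afp at 1.02 ± 0.229, Adgrg4 at 0.816 ± 0.245, Celf3 at 0.503 ± 0.0924, Asic5 at 0.276 ± 0.162 and Vwa5b2 at 0.273 ± 0.0799 RPKM, and in that order each gene overlapped its neighbour. Cryba2 at 0.0963 ± 0.0361 and Dnah9 at 0.0757 ± 0.0117 RPKM were lowest, below all libraries of the others and overlapping each other. In NF duodenum Afp led at 12.5 ± 1.21 RPKM, above all libraries of the other genes. Adgrg4 at 2.47 ± 0.474, Gfra3 at 1.55 ± 0.301, Bex2 at 1.15 ± 0.251 and Asic5 at 0.871 ± 0.247 RPKM came next, each overlapping its neighbour. Below Asic5 and clear of it were ccdc198 at 0.486 ± 0.177, Celf3 at 0.471 ± 0.0929 and Vwa5b2 at 0.388 ± 0.0469 RPKM, which overlapped. Cryba2 at 0.156 ± 0.0968 and Dnah9 at 0.0661 ± 0.00914 RPKM were again lowest by mean, but here the libraries of Cryba2 overlapped those of ccdc198.

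The genes whose pattern over the 16 libraries was most like each of these genes were found by a distance, the percentage of a gene's summed CPM that would have to move between libraries to match the other gene, over 15130 genes with at least 1 CPM in a group. All 16 libraries share the genotype contrast that chose the genes, so this is a description with no test. Afp was closest to Cck, the gene of cholecystokinin, at 3.03%, then to Ghrl, the gene of ghrelin, at 7.12% and to Ambp at 7.75%, against a median of 67.2% over all genes. Cck averaged 0.0174 CPM in NFVCT ileum against 3.80 CPM in NF ileum, and 0.0149 CPM in NFVCT duodenum against 51.0 CPM in NF duodenum. Adgrg4 was closest to Tph1, the enzyme that starts serotonin synthesis in the gut, at 8.05%, then to Neurog3 at 10.4% and to Chga, a core protein of hormone granules, at 10.6%. Asic5 was closest to the transcription factor gene Lmx1a at 10.95%, then to Chga at 12.3% and the potassium channel gene Kcnk16 at 13.3%.

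Gfra3 was closest to Sct, the gene of secretin, at 7.07%, then to Slc38a11 at 8.94% and Insm1 at 9.07%. Vwa5b2 had Rfx6 at 10.1%, Insm1 at 10.1% and Slc38a11 at 10.3% nearest, and Insm1 and Rfx6 are transcription factors of endocrine cells. Among the genes described here, Gfra3 and Vwa5b2 were the closest pair at 10.9%, and Afp and ccdc198 the farthest at 85.4%. ccdc198 was closest to Pyy, the gene of peptide YY, but at 14.7%, then to Grin2a at 16.3% and the predicted gene Gm6580 at 16.5%. Its NFVCT ileum level stayed at 1.5 ± 0.0900 CPM where Pyy averaged 0.0176 CPM.

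Dnah9 was nearest to Rimbp2 at 11.3%, Aplnr at 12.6% and Stxbp5l at 12.7%. No gene on the motile cilia list reached 1 CPM in any group, so none was compared. Celf3 was nearest to Gng4 at 7.54%, to Pcsk1, which encodes a protease that processes prohormones, at 7.63%, and to the sodium channel gene Scn3a at 8.34%. Bex2 was nearest to Pck2 at 5.87%, Fxyd6 at 6.33% and Reep5 at 6.39%, with a median over all genes of only 17.2%. Pck2 averaged 33.9 CPM in NFVCT ileum against 28.6 CPM in NF ileum. Cryba2 was below 1 CPM in every group and was not compared.

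**Figure D5:**
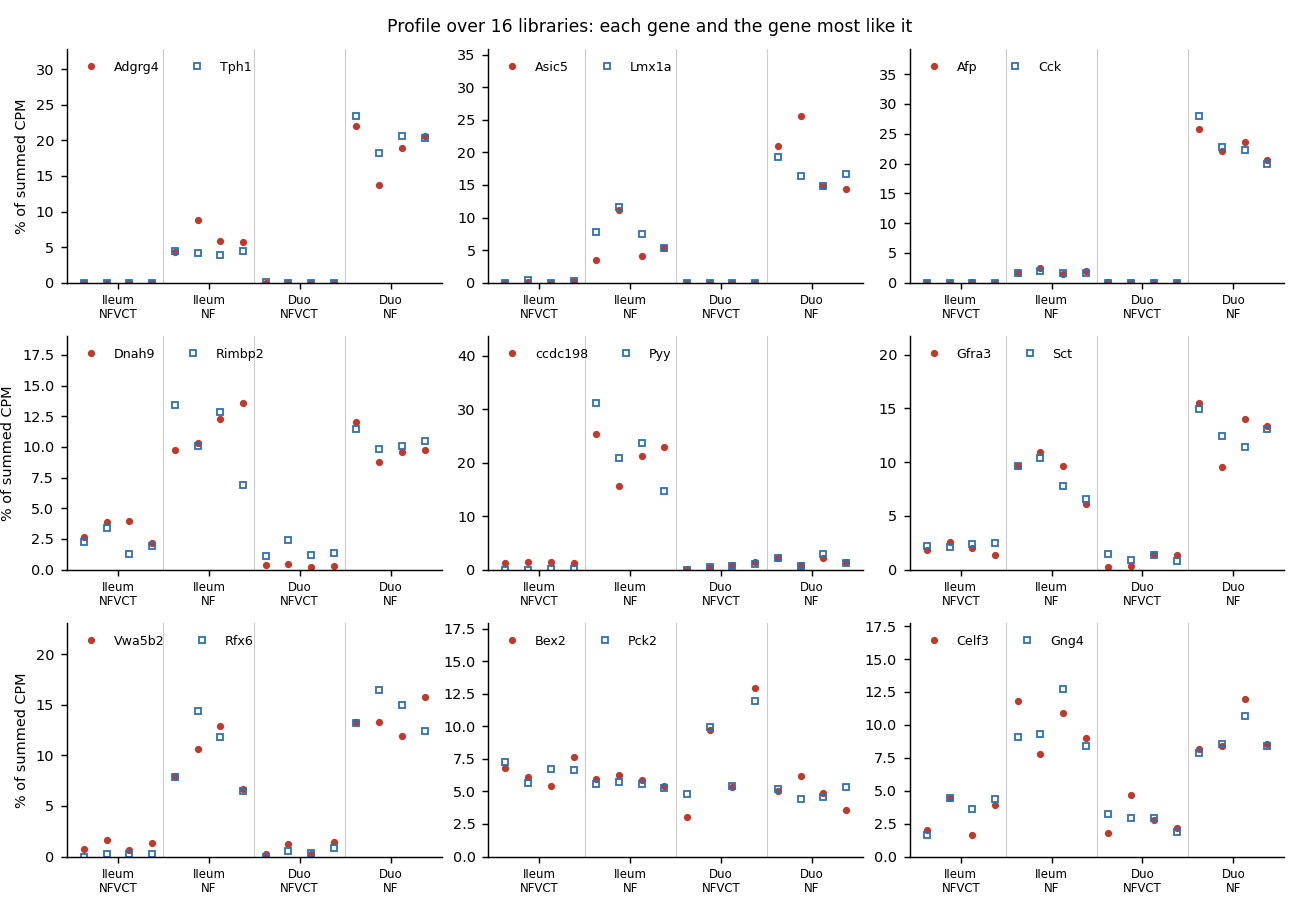
Percentage of each gene's summed CPM found in each of the 16 libraries (filled) beside that of the gene with the most similar profile (open), with NFVCT left of NF for the ileum and then the duodenum. Afp and Cck nearly coincide, while ccdc198 keeps a small level in NFVCT ileum where Pyy is near 0.

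Other members of the same families were read from a list of 61 genes, of which 41 passed the filter in each tissue. In the ileum 4 were higher in NFVCT mice (9.76%, against 19.0% of all genes tested) and 8 lower (19.5%, against 14.6%). In the duodenum 1 was higher (2.44%, against 3.44% of all genes tested) and 3 lower (7.32%, against 5.11%). Apart from the higher calls in the ileum, which were rarer than over all genes, each share of called relatives was within 5 percentage points of the background. The median log2 difference of the relatives was -0.20 in the ileum against -0.03 for all genes tested, and 0.03 in the duodenum against 0.02.

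Among relatives of Adgrg4 in the ileum, Adgrg5 fell to 1.42 ± 0.310 CPM in NFVCT mice, against 3.44 ± 0.531 CPM in NF mice (SD, n = 4 each, log2 difference -1.24, edgeR adjusted p = 0.00130). Adgrg6 fell to 11.9 ± 2.37 CPM in NFVCT mice, against 20.6 ± 3.6 CPM in NF mice, and Adgrg7 to 308 ± 47.3 CPM against 446 ± 30.3 CPM (adjusted p = 0.00511 and 0.00750). The Adgrg7 call was lost without mice M134 and M154 and without mice M167 and M177 (adjusted p = 0.0577 and 0.0547, and 0.000424 to 0.0577 over all alternatives). Adgrg1 was called higher in NFVCT ileum at a log2 difference of 0.26 (adjusted p = 0.0488), but the call was lost in most alternatives, among them without mouse M134, M136, M151, M154, M168 or M177 (adjusted p of 0.0679 to 0.129 there, and 0.0411 to 0.274 over all alternatives). Lymphoid follicle genes, 6 in number, summed to 0.871 to 2.23 CPM in NFVCT ileum against 2.33 to 137 CPM in NF ileum, and their part in these falls was not tested. Adgrg4 itself held 0 counts in these NFVCT libraries.

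Among the dyneins, Dnah7a fell to 0.297 ± 0.149 CPM in NFVCT ileum, against 1.08 ± 0.198 CPM in NF ileum (log2 difference -1.84, edgeR adjusted p = 0.00584), and Dnah5 to 1.63 ± 0.408 CPM against 3.31 ± 1.33 CPM (adjusted p = 0.0247). The Dnah5 call was lost without mouse M133, M136, M151 or M168 (adjusted p of 0.0651 to 0.0769, and 0.00377 to 0.0769 over all alternatives). In the duodenum Dnah10 was higher in NFVCT mice, at 0.795 ± 0.258 CPM against 0.248 ± 0.0993 CPM in NF mice (log2 difference 1.69, adjusted p = 0.0211), and Dnah17 was lower, at 1.39 ± 0.515 CPM against 3.17 ± 0.593 CPM (log2 difference -1.17, adjusted p = 0.0281). Dnah10 did not pass without mouse M134, M151 or M154 (adjusted p of 0.0517 to 0.0683), and Dnah17 did not pass without mouse M133, M134, M151, M154, M167 or M177 (adjusted p of 0.0513 to 0.0819). Over all alternatives the adjusted p was 0.000949 to 0.183 for Dnah10 and 0.000676 to 0.185 for Dnah17. Of the 11 genes of this list tested in the duodenum, 1 was called higher and 1 lower (9.09% each, against 3.44% and 5.11% of all genes tested). Of the 12 tested in the ileum, 0 were called higher (against 19.0%) and 2 lower (16.7%, against 14.6%).

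The receptor kinase Ret, the signalling partner of Gfra3, was at 7.53 ± 1.87 CPM in NFVCT duodenum against 12.4 ± 1.72 CPM in NF duodenum (log2 difference -0.70, edgeR adjusted p = 0.0425), and without mouse M133, M134, M136, M151, M154, M168 or M177 it did not pass (adjusted p of 0.0567 to 0.116, and 0.00605 to 0.142 over all alternatives). In the ileum Ret was at 29.9 ± 7.27 CPM in NFVCT mice and 23.3 ± 2.29 CPM in NF mice, which did not pass (adjusted p = 0.0684). The ligand gene Artn was at 0.409 ± 0.164 CPM in NFVCT ileum and 0.756 ± 0.201 CPM in NF ileum (adjusted p = 0.105), and at 0.223 ± 0.0872 CPM in NFVCT duodenum and 0.208 ± 0.0657 CPM in NF duodenum (adjusted p = 0.903). Gfra2, the co-receptor for neurturin, fell to 2.41 ± 0.510 CPM in NFVCT ileum, against 4.52 ± 0.534 CPM in NF ileum (adjusted p = 0.00547).

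Vwa5a fell to 54.5 ± 6.35 CPM in NFVCT ileum, against 94.7 ± 7.46 CPM in NF ileum (log2 difference -0.77, edgeR adjusted p = 0.000323). The Bex relatives were higher in NFVCT ileum where called: Bex3 at 10.8 ± 1.67 CPM against 6.45 ± 0.104 CPM in NF ileum (adjusted p = 0.00107), Tceal9 at 42.2 ± 2.86 CPM against 29.7 ± 1.22 CPM (adjusted p = 0.000603) and Bex1 at 8.69 ± 2.03 CPM against 5.45 ± 1.42 CPM (adjusted p = 0.0236). The Bex1 call was lost without mouse M134, M136, M154 or M177 (adjusted p of 0.0517 to 0.0736, and 0.00651 to 0.145 over all alternatives). Of 4 Bex relatives tested in the ileum, 3 were higher (75.0%, against 19.0% of all genes tested) and 0 lower (against 14.6%). In the duodenum 0 of 3 were called. Bex2 itself overlapped between the groups in the ileum, although it shares words with Bex3 and Bex1.

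Among the Celf genes, Celf5 fell to 1.60 ± 0.216 CPM in NFVCT duodenum, against 4.92 ± 0.893 CPM in NF duodenum, a log2 difference of -1.60 with an edgeR adjusted p of 0.00131. Celf5 was at 5.61 ± 2.09 CPM in NFVCT ileum and 4.33 ± 0.608 CPM in NF ileum, which did not pass (adjusted p = 0.202), and the difference between tissues was not tested. Celf2 fell to 30.0 ± 3.63 CPM in NFVCT ileum, against 47.1 ± 9.02 CPM in NF ileum (adjusted p = 0.00988), and the call was lost without mice M134 and M154 (adjusted p = 0.0904, and 0.00102 to 0.0904 over all alternatives). Celf1, Celf4 and Celf6 passed in neither tissue. None of the tested relatives of Asic5 (3 of 7 in each tissue), Afp (0 of 3 in the ileum and 2 of 3 in the duodenum) and Cryba2 (2 of 7 in the ileum and 3 of 7 in the duodenum) passed, and the lowest adjusted p was that of Crybb3 in the ileum, at 0.255 ± 0.0862 CPM in NFVCT mice and 0.610 ± 0.306 CPM in NF mice (adjusted p = 0.0539).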

How the data were processed

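Stranded total RNA libraries, depleted of ribosomal RNA with riboPOOL per the labels' protocols, were made from ileum and duodenum. Per the submitters' processing notes, the mm39 assembly was used with HTSeq 0.6.1p1, STAR 2.5.3a, Bowtie2 2.2.8 and cutadapt 1.10. Neither the strand setting of the counting nor the annotation release is given in the sources used here. As deposited, the authors' table holds raw counts per gene, not normalized. Without a stated strand setting, reads of overlapping opposite-strand genes (Riiad1 with Celf3, Alg3 and Gm49748 with Vwa5b2, Gm48935 with ccdc198, Gm12296 with Dnah9) cannot be told apart.

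Names, exon lengths and overlaps came from GENCODE M21, on an earlier assembly, and named 52083 of 55359 identifiers. The 10 genes and all lists were chosen with earlier results of these data known. CPM used effective library sizes from TMM, the trimmed mean of M values. Tests used edgeR 4.0.16 (limma 3.58.1, R 4.3.3) on 8 libraries each, with filterByExpr, TMM, robust quasi-likelihood fits and Benjamini-Hochberg adjustment over all tested genes at 0.05. They were also run on simulated counts, which held no pairing of mice and no uneven pancreas or follicle RNA. No result here rests on that run. Groups at 0 counts were set to 3 counts over the group, and 1 to 3 counts have exact 95% counting intervals.

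The titles carry 8 numbers shared by both tissues, read as mice. Duodenum residuals correlated best with the ileum residuals of the same number in 8 of 8 mice (r between 0.221 and 0.481, with -0.106 to 0.240 for the closest other mouse), so the numbers pair the samples. Mice are separate animals, and no 2 libraries agreed within sampling noise.

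All 10 genes are described. The 3 nearest profiles are named for each gene with a mean of at least 1 CPM in a group, as are called relatives, at most 4 a family. Genes named as markers stand for their lists. Ins2, the top islet gene, and Ctrb1, the top exocrine gene of the NFVCT duodenum, are among them. Ret in the ileum, Artn, Alb, Ttr, Crybb3 and the Celf genes that were not called were named after their values were seen. Alternatives were DESeq2 1.42.0, its size factors in edgeR, limma-voom, no filter, at least 1 CPM in 4 libraries, leaving out each mouse, 2 pairs of mice left out, library totals without TMM for shares, and the mouse as a block.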

Additional observations from a re-analysis of the deposited data

Results flagged for a closer look

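In 36 groups of 4 libraries, 3 held a library whose gap to its nearest neighbour took up more of the group's range than Dixon's 95% critical value allows, and chance gives about 1 in 20. Afp in NFVCT ileum was highest in mouse M168, at 0.139 CPM, with a gap of 0.969 of the range. Cryba2 in NFVCT duodenum was highest in mouse M177, at 0.138 CPM from 5 counts, with a gap of 0.849. Celf3 in NF duodenum was highest in mouse M151, at 3.34 CPM, with a gap of 0.901.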

How the results depend on the processing

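The mouse as a replicate block left the calls of the tissue comparison in NF mice as they were, with 1 gene higher and 3 lower. The 4 calls in NF mice held in every alternative run. In NFVCT mice no call is drawn, since Dnah9 alone passed (1 gene higher) and had entered through its ileum libraries only, and under the filter of 1 CPM, where it was not tested, 0 were higher. The genes called lower in NF numbered 4 with limma-voom and 3 to 4 without single mice. Signs turned for differences that passed nowhere. Celf3 in NF mice was -0.0272 without M133 and ranged to 0.205 without single mice. Bex2 in NFVCT mice was 0.0114 with limma-voom, 0.58 without M167 and M177, and -0.52 to 0.0422 without single mice, the last without M177. Celf3 in NFVCT mice was -0.30 without M167 and M177 and -0.15 to 0.28 without single mice. Between genotypes in the duodenum, 606 genes were higher and 900 lower. These became 1376 and 1580 with DESeq2, 37 and 163 without mice M134 and M154, 140 and 305 without mice M167 and M177, and 124 to 1025 and 352 to 1114 without single mice. Relatives higher there numbered 3 with DESeq2, 0 with the 1 CPM filter, 0 without either pair of mice and 0 to 3 without single mice. Relatives lower there numbered 1 without mice M134 and M154 and 1 to 2 without single mice. In the ileum, lower genes numbered 2672, 1677 without mice M134 and M154 and 1864 to 3116 without single mice, and relatives higher 2 without mice M134 and M154 and 2 to 4 without single mice. The cause was not tested. Groups of 4 mice and low counts limit the rest: Cryba2 in the duodenum kept 3.75 to 28.6% of the NF mean when single mice were left out. The 27 nearest genes were the same with DESeq2 size factors.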
